A study of Mus musculus with 4 samples.

Results

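The 10 genes described here are immediate-early genes outside the AP-1, KLF and BTG families: Egr1, Egr2, Nr4a1, Srf, Ier2, Ier3, Ier5, Ier5l, Csrnp1 and Gadd45b. They were listed by name, with no threshold on their values but with earlier results of these data known. All 10 were found among the 41324 genes of the count table. The libraries came from RAW264.7 cells, a virus-transformed mouse macrophage line, labelled as cytoplasmic RNA, and 1 library was sequenced at each of 4 times: untreated cells, and cells given 10 µg/ml actinomycin D for 2, 4 and 6 h. Actinomycin D binds DNA and blocks transcription, so the course of an mRNA under the drug follows the loss of what was already made, and the time course was built to give half-lives. The labels do not say whether the 4 libraries came from separate cultures, so no difference between times has a replicate check. The p-values measure scatter of the libraries around a fitted line or curve, with a variance partly shared across all tested genes. They measure no spread between cultures, and they move with the scaling and with the genes tested.

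Immediate-early genes are those that a stimulated cell switches on without first making new protein. Many carry binding sites for SRF, the serum response factor, which binds a short A and T rich element called the CArG box together with partner proteins of the ternary complex factor or MRTF families, and many make mRNAs that are degraded quickly, in part through AU-rich elements of the 3′ UTR. In macrophages such genes are induced by growth factors, adhesion and bacterial products. These cells were labelled with no stimulus other than the drug.

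Library totals ran between 12762100 counts at 6 h and 70289647 at 4 h, so the 6 h library carried the widest counting error. All 9 macrophage markers examined, among them Adgre1, Csf1r and Cd68, were at 1 CPM (a count rescaled to a fixed library size) or more, with a summed level of 4134, 4417, 4873 and 5422 CPM at 0, 2, 4 and 6 h. Of 16 markers of T cells, B cells, fibroblasts, epithelium, endothelium and hepatocytes, 0 reached 1 CPM. Their summed level was 0.657, 0.832, 1.03 and 0.981 CPM, and 9 of them, among them Cd3e, Epcam and Alb, had 0 counts in all 4 libraries. Levels are given below as CPM of the library size scaled by trimmed mean of M-values (TMM), and changes relative to the untreated library carry 95% intervals that cover counting error only. In bulk RNA of this kind, fewer cells and less RNA per cell cannot be told apart, and a level is relative to the other RNA of its library.

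Of the 10 genes, 8 had a mean of at least 1 CPM over the libraries and entered the tests with 10837 genes in all, while Egr1 and Ier5l did not. Each of the 8 stood above 1 CPM in every library, with a lowest value of 1.47 CPM. Most of them lost much of their mRNA within the first 2 h and then lost little more or stood higher again. At 2 h, 5 of the 8 had a log2 change of -1 or lower, namely Csrnp1, Egr2, Ier3, Nr4a1 and Ier2, against 9.06% of all tested genes. At 4 h this held for 4 of them, without Ier2, against 14.7% of tested genes, and at 6 h for 3 of them, Csrnp1, Egr2 and Nr4a1, against 16.1%. The median log2 change of the 8 genes was -1.17, -1.14 and -0.53 at 2, 4 and 6 h, beside 0.010, 0.016 and 0.007 for all tested genes. With libraries scaled by total counts, 3 of the 8 and 513 tested genes had such a change at 2 h, Nr4a1 and Ier2 being no longer among them, and the median of the 8 was -0.77.

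Time was tested with edgeR's quasi-likelihood test in 4 ways: as a straight line, as a bend (a quadratic term), as line and bend jointly, and as a line through the 3 drug libraries alone. A gene passed where its Benjamini-Hochberg adjusted p over all tested genes was under 0.05. The joint test called 7 of the 8 genes with lower levels under the drug, against 36.2% of all tested genes, and Gadd45b was the exception. A step model, which compares the 3 drug libraries as 1 group with the untreated one, kept Csrnp1, Egr2 and Nr4a1, and did not call Ier2, Ier3, Ier5 and Srf, with adjusted p of 0.15, 0.0651, 0.535 and 0.635 by edgeR. It called 1136 of the 10837 tested genes lower, and its log2 changes were -0.74 for Ier2, -1.23 for Ier3, -0.35 for Ier5 and -0.08 for Srf. Without the 6 h library, a choice made after seeing the data, it called 5 of the 8 and 1545 genes in all, with Ier2 (adjusted p 0.0124) and Ier3 (0.00798) among the 5. The joint test called 0 of them higher, against 31.6% of all tested genes, and so did DESeq2. The bend was upward and past the threshold in the same 7 genes, against 18% of tested genes. With total counts this held for 5 of the 8 and for 669 genes in all. The straight line called 0 of the 8 as falling or rising, against 16.8% falling and 8.03% rising among all tested genes. At an unadjusted p under 0.05 it called 2 of the 8, Csrnp1 and Nr4a1, both falling. At that threshold it called 5083 of the 10837 tested genes, 2888 of them falling, so the 2 of 8 lie near the share of all tested genes. DESeq2 called both as falling at its adjusted p, with 2162 genes falling in all. The line through the drug libraries alone rose in 3 of the 8, Ier2, Ier3 and Ier5, against 6.87% of tested genes, and fell in 0 of them, against 15.2%.

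**Figure D1:**
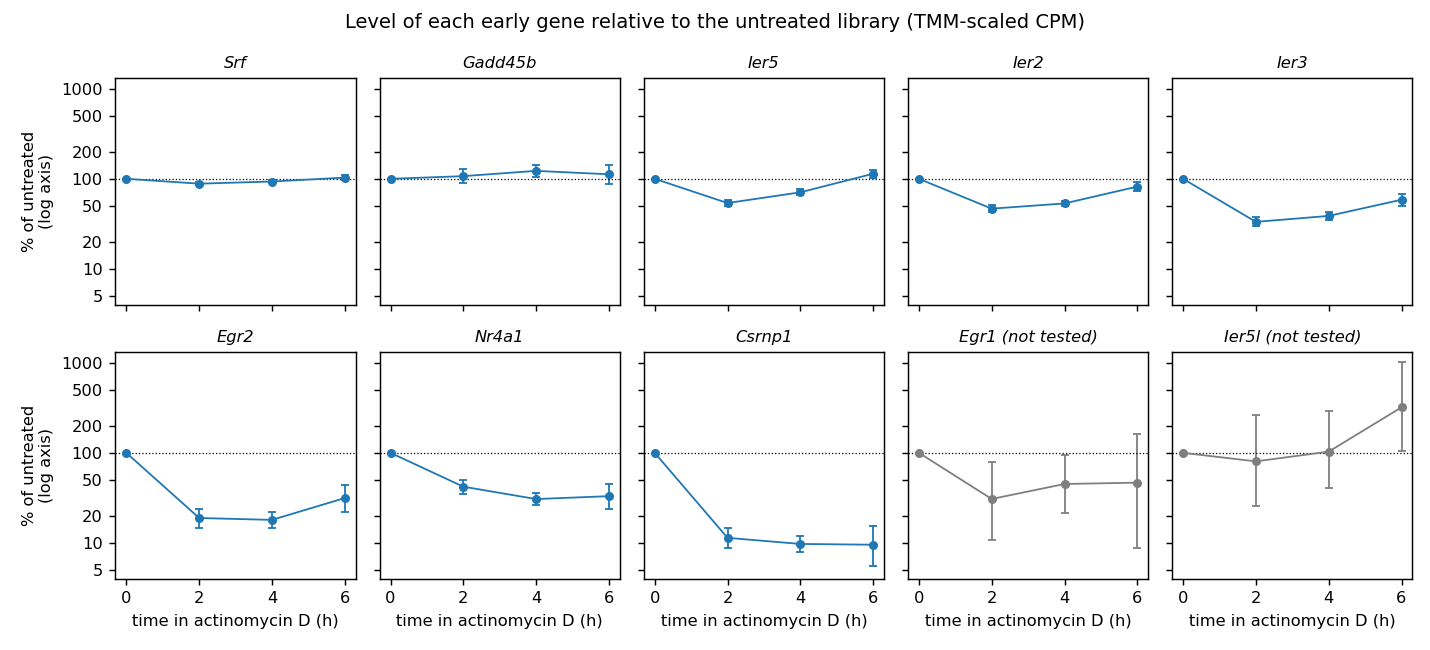
Level of each of the 10 genes as percent of its untreated level (y axis, logarithmic) over hours of actinomycin D (x axis), with bars for the 95% counting interval. The 8 tested genes are blue, and Egr1 and Ier5l, which were too low to test, are gray. Csrnp1 lies near 10% at all 3 drug times, Srf and Gadd45b stay near 100% with TMM, and Ier5 reaches 114% at 6 h.

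The nuclear regulators Csrnp1, Egr2, Egr1, Nr4a1 and Srf are described first. Csrnp1, a cysteine- and serine-rich nuclear protein with transcription-activating activity, had 15.4 CPM untreated and 1.76, 1.501 and 1.47 CPM at 2, 4 and 6 h. Its level was thus 11.4% of untreated at 2 h (8.82 to 14.6), 9.75% at 4 h (7.87 to 11.98) and 9.55% at 6 h (5.61 to 15.3), the lowest at each time among the 10. The whole measured loss was present in the 2 h library, and the 3 drug libraries had overlapping intervals. Its joint test gave an adjusted p of 5.46e-06 and its bend 0.0038, whereas its straight line of -0.64 ± 0.17 log2 per h (SE) stayed at an adjusted p of 0.0557. Of all tested genes, 17 had a lower log2 change at 2 h. The 6 h value rests on 18 counts.

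Egr2, a zinc-finger transcription factor also called Krox20, had 10.4 CPM untreated and 1.96, 1.87 and 3.27 CPM at 2, 4 and 6 h. These were 18.9% (14.7 to 24.1), 18.02% (14.7 to 22.03) and 31.5% (22.1 to 43.9) of untreated. All 3 drug libraries lay far below the untreated one, and the 6 h library lay above the other 2 drug libraries, on 40 counts. Its interval overlapped that at 2 h. Its joint test had an adjusted p of 1.47e-05 and its bend 0.000693. The 6 h level was 167% of the 2 h level (111 to 245), but the line through the drug libraries did not pass, with 0.16 log2 per h and an adjusted p of 0.198.

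Egr1, the founding member of the same zinc-finger family, was nearly absent already in untreated cells, with 16 counts there and 7, 18 and 3 counts at 2, 4 and 6 h. Its levels of 0.526, 0.162, 0.237 and 0.245 CPM gave 30.8% (10.7 to 79.0), 45.1% (21.7 to 94.5) and 46.7% (8.71 to 163) of untreated. The 2 h and 4 h intervals lay under 100% and the 6 h interval did not. With no filter on low genes, its joint test had an adjusted p of 0.252.

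Nr4a1, the orphan nuclear receptor Nur77, had 11.6 CPM untreated and 4.90, 3.57 and 3.84 CPM at 2, 4 and 6 h. The level was 42.1% of untreated at 2 h (35.4 to 50.1), 30.7% at 4 h (26.1 to 36.1) and 33.1% at 6 h (23.8 to 44.9). The 4 h level was 72.9% of the 2 h level (60.7 to 87.7), a further loss beyond counting error. Its joint test had an adjusted p of 2.98e-05 and its bend 0.00922, and its straight line of -0.28 ± 0.08 log2 per h had an adjusted p of 0.0573. Over the drug libraries alone the line was -0.11 log2 per h with an adjusted p of 0.282. With total counts that line was called falling, at -0.17 log2 per h and an adjusted p of 0.0369 by edgeR. The bend of Nr4a1 then did not pass, with an adjusted p of 0.0881 by edgeR.

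Srf, with TMM scaling, changed little. It had 120 CPM untreated and 106, 112 and 124 CPM at 2, 4 and 6 h, which were 88.3% (84.5 to 92.3), 93.3% (89.7 to 97.0) and 103% (97.1 to 110) of untreated. The dip at 2 h and 4 h was larger than counting error and the 6 h library overlapped the untreated one. The joint test called this dip, with a mean log2 change of -0.08 and an adjusted p of 0.014. The call was lost with DESeq2, at an adjusted p of 0.141, and the mean change was 0.23 where libraries were scaled by total counts, so its direction is not fixed by these data. With ribosomal protein genes it stood at 74.8%, 74.1% and 80.8% of untreated.

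The promoter windows of Srf and Egr2 are shown because both hold the CArG box that SRF binds, and that of Nr4a1 because it holds none but repeats another element. The windows are from RefSeq on GRCm38.p6, each 300 bases long with 250 bases before the transcription start and 50 after it, written 5′ to 3′ on the strand of the gene. Windows were matched for 8 of the 10 genes, 15 windows in all, and Egr1 and Ier2 were not matched. Capitals mark the CArG boxes in the first pair and CGTCA, which is TGACG on the other strand, in the last.
Srf, chr17:46556113-46556412, minus strand: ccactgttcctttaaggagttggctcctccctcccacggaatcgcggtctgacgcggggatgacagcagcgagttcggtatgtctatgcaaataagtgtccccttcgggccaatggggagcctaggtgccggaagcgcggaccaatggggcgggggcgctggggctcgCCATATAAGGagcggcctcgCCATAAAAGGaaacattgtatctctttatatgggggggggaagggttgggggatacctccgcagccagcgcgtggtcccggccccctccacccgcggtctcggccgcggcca
Egr2, chr10:67537619-67537918, plus strand: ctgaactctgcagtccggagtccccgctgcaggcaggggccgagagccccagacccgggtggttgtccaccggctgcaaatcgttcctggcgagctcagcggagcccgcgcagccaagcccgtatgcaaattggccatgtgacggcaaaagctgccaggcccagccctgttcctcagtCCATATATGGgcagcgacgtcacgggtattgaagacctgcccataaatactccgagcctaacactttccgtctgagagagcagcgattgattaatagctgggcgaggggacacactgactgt
Nr4a1, chr15:101266596-101266895, plus strand: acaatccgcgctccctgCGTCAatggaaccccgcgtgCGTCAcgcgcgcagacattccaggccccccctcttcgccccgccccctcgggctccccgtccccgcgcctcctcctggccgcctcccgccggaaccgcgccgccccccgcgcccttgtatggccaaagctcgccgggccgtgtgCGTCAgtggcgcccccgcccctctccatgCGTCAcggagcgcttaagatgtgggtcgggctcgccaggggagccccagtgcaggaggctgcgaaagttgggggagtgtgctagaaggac

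The Srf window held 2 CArG boxes, CCATATAAGG at 82 bases and CCATAAAAGG at 62 bases before the start. At least 1 CArG box was found in 1.63% of the 32851 windows in the reference, and 2 or more in 6 windows, of which that of Srf is 1. The Egr2 window held CCATATATGG at 72 bases before the start, and 4 of the 5 Egr2 windows held a CArG box, 3 of them the same one in overlapping windows. The Nr4a1 window held TGACG 4 times counting both strands, as did 0.23% of all windows with 4 or more, while 20.8% of windows held at least 1. The 8-base form TGACGTCA, in 1.79% of all windows, was in 0 of the 15 windows of these genes. No CArG box was found in the windows of Nr4a1, Ier3, Ier5, Ier5l, Csrnp1 and Gadd45b, which says only that these letters are not in those 300 bases. For Csrnp1 the starts of the 4 windows lay 5688 to 7407 bases from the start of the transcript whose exons are counted below. For Nr4a1 this distance was 12577 bases. Searched on both strands, TATAAA was found for 2 genes (13.6% of all windows), CCGGAA for 3 (14.9%), GCGGGGGCG for 2 (2.91%) and GCGTGGGCG for 0 (0.61%). Srf and Egr2, the genes with a CArG box in the window, had different courses. At 2 h the Srf mRNA stood at 88.3% of untreated and the Egr2 mRNA at 18.9%. Under the drug a course follows mRNA already made, and a part of the promoter in it was not tested.

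Of the Ier genes, Ier2, Ier3 and Ier5 had lower levels at 2 h and differed in depth, and Ier5l was too low to test. Ier5, a single-exon gene whose human protein activates the heat shock factor HSF1, had 38.4 CPM untreated and 20.7, 27.2 and 43.7 CPM at 2, 4 and 6 h. Its level was 53.8% of untreated at 2 h (49.3 to 58.8), 70.8% at 4 h (65.9 to 76.2) and 114% at 6 h (103 to 126). Each later drug library stood above the one before it by more than counting error, and with TMM the 6 h library stood above the untreated one. Against untreated the 6 h level depended on the scaling. It was 128% with total counts and 113% with DESeq2 size factors, but 89.2% with ribosomal protein genes and 79.5% with the deposited divisors. Through the drug libraries it rose by 0.27 ± 0.03 log2 per h with an adjusted p of 1.56e-08. The joint test had an adjusted p of 0.000228 and the bend 0.000555, and the straight line over all 4 libraries was flat at 0.04 ± 0.08 log2 per h, with an adjusted p of 0.727.

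Ier2, a single-exon gene for a small nuclear regulatory protein, had 46.8 CPM untreated and 21.8, 24.9 and 38.3 CPM at 2, 4 and 6 h. The 6 h level was 176% of the 2 h level (157 to 196), so the library at 6 h stood well above that at 2 h while remaining under the untreated one. Its line through the drug libraries rose by 0.20 ± 0.04 log2 per h with an adjusted p of 1.74e-05, and the joint test had an adjusted p of 4.76e-05.

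Ier3, the stress-induced regulator of cell survival also known as IEX-1, had 29.99 CPM untreated and 9.98, 11.6 and 17.6 CPM at 2, 4 and 6 h. These were 33.3% (29.6 to 37.4), 38.7% (35.3 to 42.5) and 58.6% (50.3 to 68.1) of untreated. It dipped deeper than Ier2 and Ier5 at each of the 3 times, with intervals that did not overlap theirs, and its 6 h level was 176% of the 2 h level (149 to 208). The line through the drug libraries rose by 0.20 ± 0.05 log2 per h with an adjusted p of 0.00092, and the joint test had an adjusted p of 7.02e-05.

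Ier5l, a relative of Ier5 by sequence, had 7, 8, 18 and 9 counts at 0, 2, 4 and 6 h. Its level of 0.230, 0.185, 0.237 and 0.736 CPM gave 80.4% (25.5 to 260), 103% (41.1 to 292) and 320% (106 to 1011) of untreated. The 6 h library alone stood above the untreated one, on 9 counts. With no filter, its joint test had an adjusted p of 0.119, so no change was called.

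Gadd45b, a stress sensor that binds the kinase MTK1 and is induced by NF-κB, had 6.996 CPM untreated and 7.48, 8.57 and 7.85 CPM at 2, 4 and 6 h. These were 107% (89.7 to 128), 123% (105 to 144) and 112% (87.2 to 143) of untreated, and only the 4 h interval lay above 100%. Its joint test had an adjusted p of 0.327, and the sign of its mean log2 change was negative under scaling to ribosomal protein genes and under the divisors of the deposited normalized values. Under total counts it passed the joint test with higher levels, with a mean log2 change of 0.49 and an adjusted p of 0.0207.

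**Figure D2:**
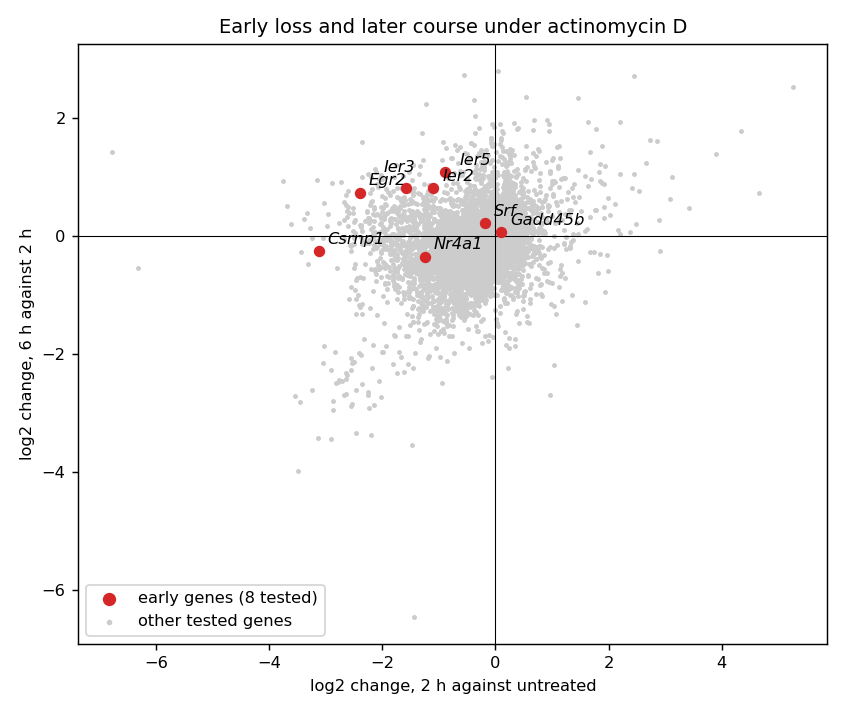
Each tested gene by its log2 change at 2 h against untreated (x axis) and at 6 h against 2 h (y axis), with the 8 early genes in red and the other tested genes in gray. Egr2, Ier3, Ier2 and Ier5 lie upper left (lower at 2 h, higher again at 6 h), Csrnp1 and Nr4a1 lower left, and Srf and Gadd45b near the origin.

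Among all 982 tested genes at a log2 change of -1 or lower at 2 h, 312 (31.8%, or 2.88% of all tested genes) stood higher at 6 h than at 2 h, and of the early genes this held for 3 of 5: Egr2, Ier2 and Ier3. A rising late line past the test was found in 51 of those 982 genes, Ier2 and Ier3 among them. That is 5.2%, against 6.87% of all tested genes. The 6 h library was also the smallest, with 12762100 counts, and had the highest summed macrophage markers, at 5422 CPM against 4417 CPM at 2 h. The part of either in these later levels was not tested.

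A ratio of 2 genes in 1 library does not depend on the scaling, and Srf, the most abundant of the 10 and near its untreated level with TMM, was taken as the comparator after the values were seen. Ier5 had 32.0 counts per 100 Srf counts untreated (29.9 to 34.1), and 19.5 (18.1 to 20.9), 24.3 (23.1 to 25.5) and 35.3 (31.9 to 38.9) at 2, 4 and 6 h. Ier2 had 39.0, 20.6, 22.3 and 31.0 counts per 100 Srf counts, and Ier3 had 24.97, 9.41, 10.4 and 14.2. For these 3 genes the 6 h ratio stood above the 2 h ratio with intervals that did not overlap. Csrnp1 had 12.8, 1.66, 1.34 and 1.19 counts per 100 Srf counts, and its 6 h and 2 h intervals overlapped. Egr2 had 8.64, 1.85, 1.67 and 2.64, and Nr4a1 had 9.68, 4.62, 3.19 and 3.10. In both genes the 6 h and 2 h intervals overlapped, at 1.88 to 3.61 and 1.48 to 2.29 for Egr2. Such ratios show that the genes changed unequally, not which one of a pair changed.

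The courses were held against 4 other scalings. The median log2 change of all tested genes at 2, 4 and 6 h was 0.42, 0.36 and 0.17 with total counts, -0.23, -0.32 and -0.34 with ribosomal protein genes, and -0.27, -0.45 and -0.51 with the deposited divisors, against 0.010, 0.016 and 0.007 with TMM. The joint test called 3919 genes lower and 3420 higher with TMM, 2680 and 5154 with total counts, 6223 and 578 with ribosomal protein genes, and 7737 and 257 with the deposited divisors. The straight line called 1817 falling and 870 rising with TMM, 1318 and 205 with total counts, 2554 and 132 with ribosomal protein genes, and 4963 and 72 with the deposited divisors. Under all 5 scalings, DESeq2 size factors included, the 6 h level of Ier5 was 179% to 213% of its 2 h level, that of Ier2 149% to 177% and that of Ier3 149% to 177%. The line through the drug libraries passed for Ier5 under all 5. For Ier2 it did not pass with the deposited divisors, at an adjusted p of 0.0807, and for Ier3 it passed neither with them, at 0.127, nor with ribosomal protein genes, at 0.063.

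**Figure D3:**
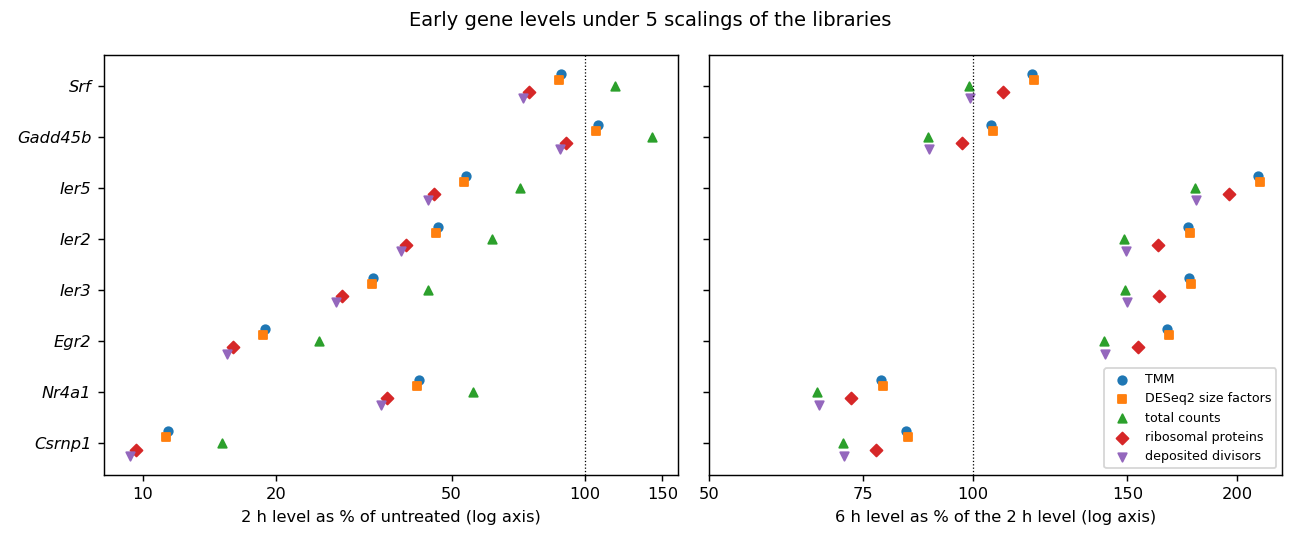
The 8 tested genes (rows) under 5 scalings (symbols), on logarithmic axes: the 2 h level as percent of untreated at left, and the 6 h level as percent of the 2 h level at right, with a dotted line at 100%. The 6 h level of Ier5 stays at 179% to 213% of its 2 h level under each scaling.

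The authors' deposited table also lists a half-life per gene, and for these 10 genes it runs from under 1 h to most of a day. In the authors' deposited table Csrnp1 has a half-life of 0.904 h, Egr2 1.17 h, Nr4a1 1.70 h, Ier3 1.81 h and Egr1 1.92 h. The authors' deposited table gives 2.42 h for Ier2, 3.22 h for Ier5, 6.28 h for Srf, 6.94 h for Ier5l and 18.9 h for Gadd45b. Among the 9848 tested genes with a positive value the median is 7.43 h in the authors' deposited table, and 989 tested genes have no positive value. Of the 10 genes 9 lie under that median, Egr1 and Ier5l on at most 18 counts in any library. Csrnp1 has a longer half-life than 0.53% of the 9848 genes in the authors' deposited table, Egr2 than 1.44%, and Gadd45b than 79.8%. Srf and Ier5l lie close to the median, with longer half-lives than 44.4% and 47.8% in the authors' deposited table.

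Refitting showed what these half-lives rest on. All 14957 of the deposited half-lives were recovered within 0.01% by a log-linear fit, held to the untreated value, of the normalized levels at 0, 2 and 4 h, so the 6 h library does not enter them. With the 6 h library added to the same fit, the half-life of Ier5 became 6.83 h, against 3.22 h in the authors' deposited table, and that of Ier2 4.28 h, against 2.42 h in the authors' deposited table. Ier3 became 2.98 h, Egr2 1.85 h, Nr4a1 2.29 h, Egr1 2.78 h, Srf 9.29 h and Csrnp1 1.23 h, and Gadd45b was shorter, at 17.6 h. For Ier5l the 4 times gave no positive half-life. The scaling matters as much for the slow genes: with TMM levels at 0, 2 and 4 h, Srf had 26.3 h, and Gadd45b had no positive half-life. A half-life assumes a steady loss, and with TMM 7 of the 8 tested genes had a bend past the test. With total counts the upward bend passed in 5, without Nr4a1 and Srf, and Gadd45b had a downward one.

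**Figure D4:**
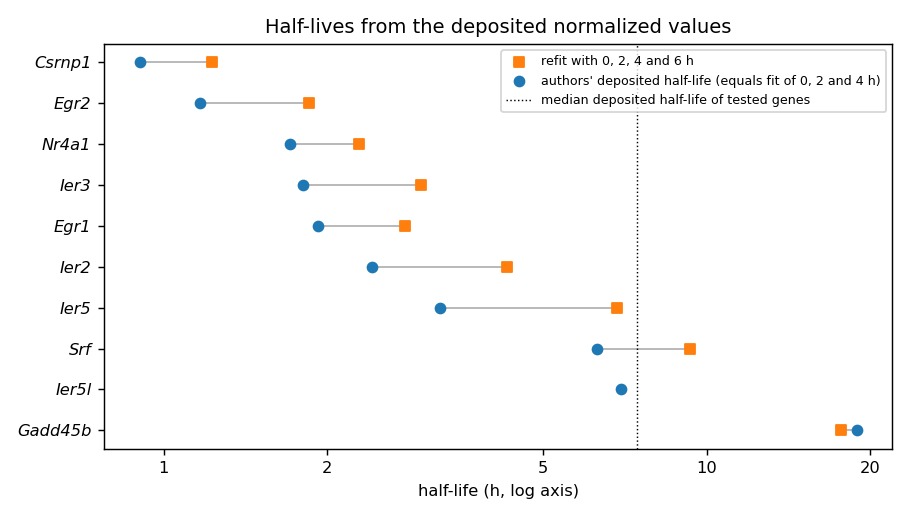
Half-life in hours (logarithmic axis) of each gene as deposited by the authors, from 0, 2 and 4 h, and refitted here with the 6 h library added. With 6 h added Ier5 has 6.83 h, against 3.22 h as deposited, and Csrnp1 is the shortest at 1.23 h. Ier5l has no positive value with 6 h added.

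Per kilobase of exon, the 10 genes spanned a wide range in untreated cells. Srf stood highest at 45.9 CPM per kb, followed by Ier2 at 30.8, Ier3 at 26.5 and Ier5 at 11.7, each apart from its neighbours beyond counting error. Gadd45b at 5.10, Csrnp1 at 4.69 and Nr4a1 at 4.34 CPM per kb came next, with intervals that overlapped from one to the next. Egr2 stood at 3.26, and Egr1 at 0.117 and Ier5l at 0.0857 CPM per kb overlapped each other. At 6 h the order of the leading genes was Srf at 47.4, Ier2 at 25.2, Ier3 at 15.5 and Ier5 at 13.3 CPM per kb, and the last 2 overlapped. Csrnp1, sixth in untreated cells, stood at 0.448 CPM per kb at 6 h and overlapped Ier5l at 0.274.

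Exon number and length came from the annotation. In GENCODE M21 on the mm10 build, Ier2, Ier5 and Ier5l have 1 exon, Egr1, Egr2 and Ier3 have 2, Csrnp1 and Gadd45b have 4, Srf has 7 and Nr4a1 has 8, beside a median of 9 over the 9643 tested genes that could be matched. A single exon was found in 2.09% of those genes and in 3 of the 10 listed here. The longest of the 10 mRNAs was that of Egr1 at 4484 bases and the shortest that of Ier3 at 1131 bases, beside a median of 3025.

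AU-rich elements of the 3′ UTR, where proteins that speed up or slow down decay bind, were counted at 3 lengths on the mRNA strand, in DNA letters. The shortest form is ATTTA, the 7-base form TATTTAT holds it, and the 9-base form TTATTTATT holds both. ATTTA was found in 8 of the 10 genes (67.9% of all matched 3′ UTRs), and not in Ier2 and Gadd45b. TATTTAT was found in 3 (28.6%), Srf, Ier3 and Csrnp1, and TTATTTATT in 2 (7.5%), Srf and Csrnp1. The 9-base sites of Srf and Csrnp1 are shown beside a pair of the 4 in Ier3, because these mRNAs had unlike courses, with the element in capitals, on mm10.
Srf, chr17:46549020-46549049, minus strand: acggcaccacTTATTTATTgttgccttttc
Csrnp1, chr9:119972066-119972095, minus strand: cactctgaatTTATTTATTtttttatgttt
Ier3, chr17:35822531-35822560, plus strand: ggtgtatgtaaTATTTATtctaacttatgc
Ier3, chr17:35822586-35822615, plus strand: tgtaacacagaTATTTATtacgatttatag

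Genes with the same letters can be set side by side. Srf and Csrnp1 carry the same 9-base element, but Srf has 1 copy of ATTTA in its 3′ UTR and Csrnp1 has 5. At 2 h the Srf mRNA stood at 88.3% of untreated and the Csrnp1 mRNA at 11.4%. Ier2, with 0 copies of ATTTA, stood at 46.6% at 2 h (42.9 to 50.7), and Gadd45b, also with 0, at 107%. Ier3, with 5 copies of ATTTA and 4 of TATTTAT in a 3′ UTR of 613 bases, stood at 33.3%. Egr2 and Nr4a1, with 3 copies of ATTTA each, stood at 18.9% and 42.1%, and Ier5, with 2 copies, at 53.8%. A part of the copy number in these courses was not tested. A match of letters is a description of the sequence and shows no binding.

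Of 11 close relatives and binding partners of these proteins 7 were tested, and the joint test called 3 lower and 2 higher, near the shares of all tested genes (36.2% lower and 31.6% higher). Nab2, a corepressor that binds EGR proteins, stood at 33.9%, 19.6% and 21.5% of untreated at 2, 4 and 6 h, with a straight line of -0.39 log2 per h (adjusted p 0.0424 by edgeR) and a further fall under the drug (adjusted p 0.0036). Nab1, the other EGR corepressor, stood at 111%, 120% and 122% and was called higher with an adjusted p of 0.0026 by edgeR. Csrnp2, a paralog of Csrnp1, stood at 21.6%, 22.4% and 32.3% and was called lower, and Ier3ip1, a separate gene for a protein that binds IER3, stood at 120%, 135% and 135% and was called higher. Under the deposited divisors Nab1 and Ier3ip1 lay under 100%, at 84.9% and 94.1% at 6 h, so their direction depends on the scaling.

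Of 10 names for SRF partner proteins 8 were in the table and 6 were tested. The joint test called 3 lower and 2 higher, near the shares of all tested genes (36.2% and 31.6%), and the straight line called 2 falling and 1 rising (16.8% and 8.03% of all tested genes). Mkl1 and Mkl2 encode the actin-regulated SRF coactivators MRTF-A and MRTF-B. Mkl1 stood at 29.8%, 12.8% and 14.2% of untreated at 2, 4 and 6 h (straight line -0.51 log2 per h, adjusted p 0.0346 by edgeR), and Mkl2 at 68.9%, 55.1% and 54.1% (-0.15 log2 per h, adjusted p 0.0384 by edgeR). Elk4, a ternary complex factor, stood at 112%, 119% and 129% with a line of 0.06 log2 per h and an adjusted p of 0.0396 by edgeR. Phf10, a subunit of a chromatin remodelling complex, stood at 119%, 123% and 117%. Both Mkl genes lay under their untreated level at each time under all 5 scalings, whereas under the deposited divisors Elk4 stood at 90.1% and Phf10 at 81.4% at 6 h, so their direction depends on the scaling.

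A list of genes that SRF is known to regulate, mostly of the cytoskeleton, held more calls of higher than of lower levels with TMM. Of 21 listed 17 were tested, and the joint test called 13 higher and 2 lower, against 31.6% and 36.2% of all tested genes, with median log2 changes of 0.17, 0.31 and 0.37 at 2, 4 and 6 h. The straight line called 7 rising and 0 falling by edgeR, against 8.03% and 16.8% of all tested genes. Actb, cytoplasmic beta-actin, stood at 106%, 124% and 137% of untreated, and Actg1, gamma-actin, at 108%, 127% and 153%. Tpm4, a tropomyosin, stood at 122%, 141% and 157%, and Flna, the actin crosslinker filamin A, at 115%, 121% and 121%. Under the deposited divisors the list's medians were -0.12, -0.16 and -0.15, and with ribosomal protein scaling -0.07, -0.03 and 0.02, so the sign of this list is not fixed by these data.

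The other immediate-early genes, 34 of 36 tested, mostly shared the early loss. A log2 change of -1 or lower was found in 26 at 2 h and 20 at 6 h, against 9.06% and 16.1% of all tested genes. The joint test called 30 lower and 2 higher, against 36.2% and 31.6% of all tested genes. The median log2 change of the 34 was -1.66, -1.76 and -1.27 at 2, 4 and 6 h, beside -1.17, -1.14 and -0.53 for the 8 genes described here. The line through the drug libraries rose in 12 of the 34, against 6.87% of all tested genes. It fell in 5, near the share of all tested genes (15.2%). Btg1, an antiproliferative gene, had a 6 h level of 57.8% of its 2 h level (51.7 to 64.3), and Mcl1, a survival factor of the BCL2 family, 94.5% (89.3 to 99.9), against 176% for Ier2.

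Among 7719 other genes with a mean of at least 10 CPM, the 8 with log2 changes at 2, 4 and 6 h nearest to the median course of the 8 tested genes were ranked by Euclidean distance over the 3 times. Rhob, a small GTPase gene that is itself on the list of other early genes, was nearest at 0.046, with log2 changes of -1.21, -1.15 and -0.51. Zfp865 followed at 0.153, Ccdc71l at 0.186 and Mcf2l at 0.199. The circadian repressor Cry2 was at 0.201, Zfp142 at 0.209, the histone kinase gene Gsg2 at 0.216 and Tsc22d2 at 0.257. With 3 times and 1 library each, a small distance describes these libraries only.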

How the data were processed

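RNA of RAW264.7 cells was sequenced in 4 libraries, 1 per time, placed in time by their labelled treatment. Libraries were made with a directional kit after removal of ribosomal RNA, per the labels' protocols. STAR 2.5.3a, featureCounts, Subread 1.6.3 and the mm10 build are named per the submitters' processing notes. Not given in the sources used here: the annotation release, the use of strand and the handling of multiply mapping reads. Whole-number counts per gene were used as deposited. The deposited normalized signal is, by recomputation, the count over a whole-number divisor of its library, and the deposited half-lives (a score in hours) and R2 (a fraction) were compared with refits. Columns without a sample numbered 0.

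Time courses were tested with edgeR 4.0.16 under R 4.3.3 (TMM, mean CPM of at least 1 over the 4 libraries, quasi-likelihood test, 2 residual degrees of freedom for the line and 1 for the bend, joint and late tests). The direction of a joint call is the sign of the mean log2 change over the 3 drug times, computed with a prior count of 0.5. Intervals are exact 95% counting intervals on the ratio of 2 counts and cover counting error only. DESeq2 1.42.0 was an alternative, beside other scalings, filters, prior counts, a step model and leaving out libraries. The fits were also run on simulated counts with known courses, a fixed spread and library sizes taken as known. That run does not cover the choice of scaling. Promoter windows came from RefSeq (GRCm38.p6) and gene structures from GENCODE M21, by 1 transcript per gene, the APPRIS principal and then the longest.

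All 10 members are named; of each other gene list, marker lists aside, the 2 genes with the highest mean CPM and the 2 with the smallest joint p are named, with the 8 nearest courses. The members and lists were chosen with earlier results of these data known. Other genes singled out were chosen after their values were seen.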

Additional observations from a re-analysis of the deposited data

How the results depend on the processing

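The joint call of lower levels held for 7 early genes with DESeq2 size factors, ribosomal protein genes, the deposited divisors and no filter, for 6 with total counts and with DESeq2's test, which lost Srf, and for the 5 tested at a mean of at least 5 CPM. A step model (untreated against the 3 drug libraries) called 3 of them, which makes the shape fitted the choice that moved this count most, with 1136 genes lower and 76 higher in all, and a step model without the 6 h library, chosen after seeing the data, gave 5 of them, with 1545 lower and 99 higher in all. The joint mean change of Srf was 0.23 with total counts.

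With total counts the line fell in 3 early genes and rose in 205 genes in all. Under it 669 bends were upward and 4778 downward, 1 of them in an early gene, and 5154 genes were higher in the joint test, 1 of them an early gene. Late lines fell in 2945 genes, 1 of them an early gene, and rose in 216. At 2 h, 513 genes and 3 early genes had a log2 change of -1 or lower, and the early genes' median was -0.77 at 2 h and -0.80 at 4 h. Signs turned for the Srf bend (-0.016) and for the late lines of Srf (-0.0037) and Gadd45b (-0.029).

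With ribosomal protein scaling the line rose in 132 genes, 3356 bends were upward and 102 downward, 6223 genes were lower and 578 higher, and 204 late lines rose. The early genes' medians were -1.41, -1.47 and -0.88. Signs turned for the lines of Ier5 (-0.020), Gadd45b (-0.022) and Srf (-0.048), the Gadd45b joint change (-0.12) and its late line (-0.0055).

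With the deposited divisors the line fell in 4963 genes and 2 early genes and rose in 72, 3127 bends were upward and 56 downward, 7737 genes were lower and 257 higher, and late lines rose in 90 genes and 1 early gene. At 2, 4 and 6 h, 1523, 2745 and 3139 genes had a log2 change of -1 or lower, and the early genes' medians were -1.46, -1.60 and -1.05. Signs turned for the lines of Ier5 (-0.049), Gadd45b (-0.052) and Srf (-0.077), the Gadd45b bend (0.00048), joint change (-0.24) and late line (-0.038), and the Srf late line (-0.0039).

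With no filter the line fell in 2 early genes and 2223 genes in all, and 1800 bends were downward. A mean of at least 5 CPM left 453 late rises. DESeq2 called a falling line in 2 early genes and 2162 in all, a rising line in 1529 genes and 1844 genes higher in the joint test. Causes of these differences were not tested.

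Leaving out each library in turn moved the line's falls between 233 and 2248 genes and its rises between 12 and 1120, and in the early genes both between 0 and 3. Falls and rises were fewest when the 4 h library was dropped. With the untreated library left out, Ier2, Ier3 and Ier5 rose, and without the 6 h library Csrnp1, Egr2 and Nr4a1 fell. Slopes ran between -0.23 and 0.20 for Ier2, -0.63 and 0.16 for Egr2, -0.34 and 0.20 for Ier3, -0.12 and 0.27 for Ier5, and -0.025 and 0.055 for Srf. The bend, joint and late tests were not run this way, since no residual degree of freedom would be left. No paired analysis was possible because each time has 1 library. Depth limits Egr1 and Ier5l, with at most 18 counts in any library.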
